A study of Mus musculus with 6 samples.

Results

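The DNAJ proteins, also called HSP40 proteins, are co-chaperones that hand unfolded clients to HSP70 and switch on its ATPase through a conserved J domain. They differ in what surrounds that domain. Class A members carry a zinc-binding region and a glycine-rich linker, class B members the linker without the zinc-binding region, and class C members only the J domain beside unrelated parts. Each works at its own place, among them the cytosol, the endoplasmic reticulum, mitochondria, the ribosome and the nucleus. Arsenite is a classic inducer of the heat shock response, in which HSF1 binds heat shock elements in the promoters of chaperone genes.

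The genes described here were taken from the count table by symbol, as every Dnaja, Dnajb or Dnajc gene with a number. The pattern found 44 of the 18660 rows, and leaving out Dnajc15 and Dnajc19 gave 42 genes. Poly(A) RNA had been sequenced from mouse 2-cell embryos in 2 groups of 3 libraries. Control embryos were labelled 0 µM, and treated embryos had 5 µM sodium arsenite in the culture medium G1-PLUS. The labels give no strain, exposure time or number of embryos, and whether the libraries came from different cultures is not stated, so a p-value covers the spread among these libraries alone, which could be technical.

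Library totals ran from 7758507 to 8519265 counts, and 3 counts, the floor used here, came to 0.335 to 0.438 CPM. CPM are read counts divided by the TMM-scaled library size. The 2-cell embryo markers Zscan4c, Zscan4d, Zfp352 and Tcstv1 were present in each library, with a summed level of 395 to 522 CPM in controls and 927 to 2091 CPM with arsenite, and 3 of the 4 rose. The egg markers Zp3, Gdf9 and Bmp15 summed to 310.1 to 730.3 CPM in controls and 1204 to 2229 CPM with arsenite. The largest part was Bmp15, at means of 332 and 1528 CPM. Gdf9 and Bmp15 rose (adjusted p by edgeR = 0.0310 and 0.0154). Zp3 went the other way, from 86.5 ± 13.6 to 53.1 ± 11.9 CPM (n = 3, SD) without overlap, and did not pass (adjusted p by edgeR = 0.136). Of 10 cumulus and granulosa cell markers 7 were in the table. Their summed level was 33.8 to 37.7 CPM in controls and 25.9 to 42.3 CPM with arsenite, most of it Amhr2 at means of 34.5 and 26.5 CPM. Cyp11a1 rose, from 0 in each control to between 2.03 and 3.36 CPM with arsenite (adjusted p by edgeR = 0.0198). It could pass the filter on low counts only through the arsenite libraries. Tnfaip6 had 0.444 ± 0.674 and 3.55 ± 1.49 CPM (n = 3, SD) without overlap and did not pass (adjusted p by edgeR = 0.127). Has2 and Inhba were at 0 with arsenite and at most at 0.335 CPM in a control. What these marker shifts contribute to the DNAJ results was not tested. In bulk libraries fewer cells of a type and less RNA per cell cannot be told apart.

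With arsenite 3 DNAJ genes rose and 5 fell, and these 8 sat at different places in the cell. The rises were Dnajb1 and Dnajb4, both cytosolic class B co-chaperones, and Dnajc14, of the endoplasmic reticulum membrane. The falls were Dnajb6, a class B member that keeps aggregation-prone proteins soluble, Dnajb14 and Dnajc25 of the endoplasmic reticulum membrane, the splicing-linked Dnajc17, and the testis gene Dnajb3. Dnajb3 could pass the filter on low counts only through its controls and lay under the floor with arsenite. Of the 42 genes 38 passed the filter on low counts, so 8 of 38 (21.1%) were called and 30 did not pass (quasi-likelihood test of edgeR with p adjusted by Benjamini-Hochberg over 12582 genes, threshold 0.05). Among all genes tested 16.7% were called, 9.43% higher and 7.26% lower, so the family's share was near the background. The arsenite libraries lay wholly above the controls for 7 of the 38 and wholly below for 8, which is 39.5% together. Over all genes tested 21.9% lay above and 19.7% below, 41.6% together. The median log2 fold change was −0.32 over the 38 genes and 0.07 over all genes. Calls dropped in most fits without 1 library, in the family and among all genes. Without control replicates 1, 2 and 3 in turn 0, 1 and 1 DNAJ genes fell, beside 3.05%, 3.57% and 1.41% of all genes tested in those fits. Without arsenite replicates 1, 2 and 3 in turn 1, 3 and 1 fell, beside 1.35%, 8.16% and 4.82% of all genes. Rises numbered 2, 2 and 1 in the fits without a control, where 5.00%, 4.70% and 1.62% of all genes rose. They numbered 1, 3 and 3 in the fits without an arsenite library, where 2.44%, 7.08% and 6.42% of all genes rose.

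**Figure D1:**
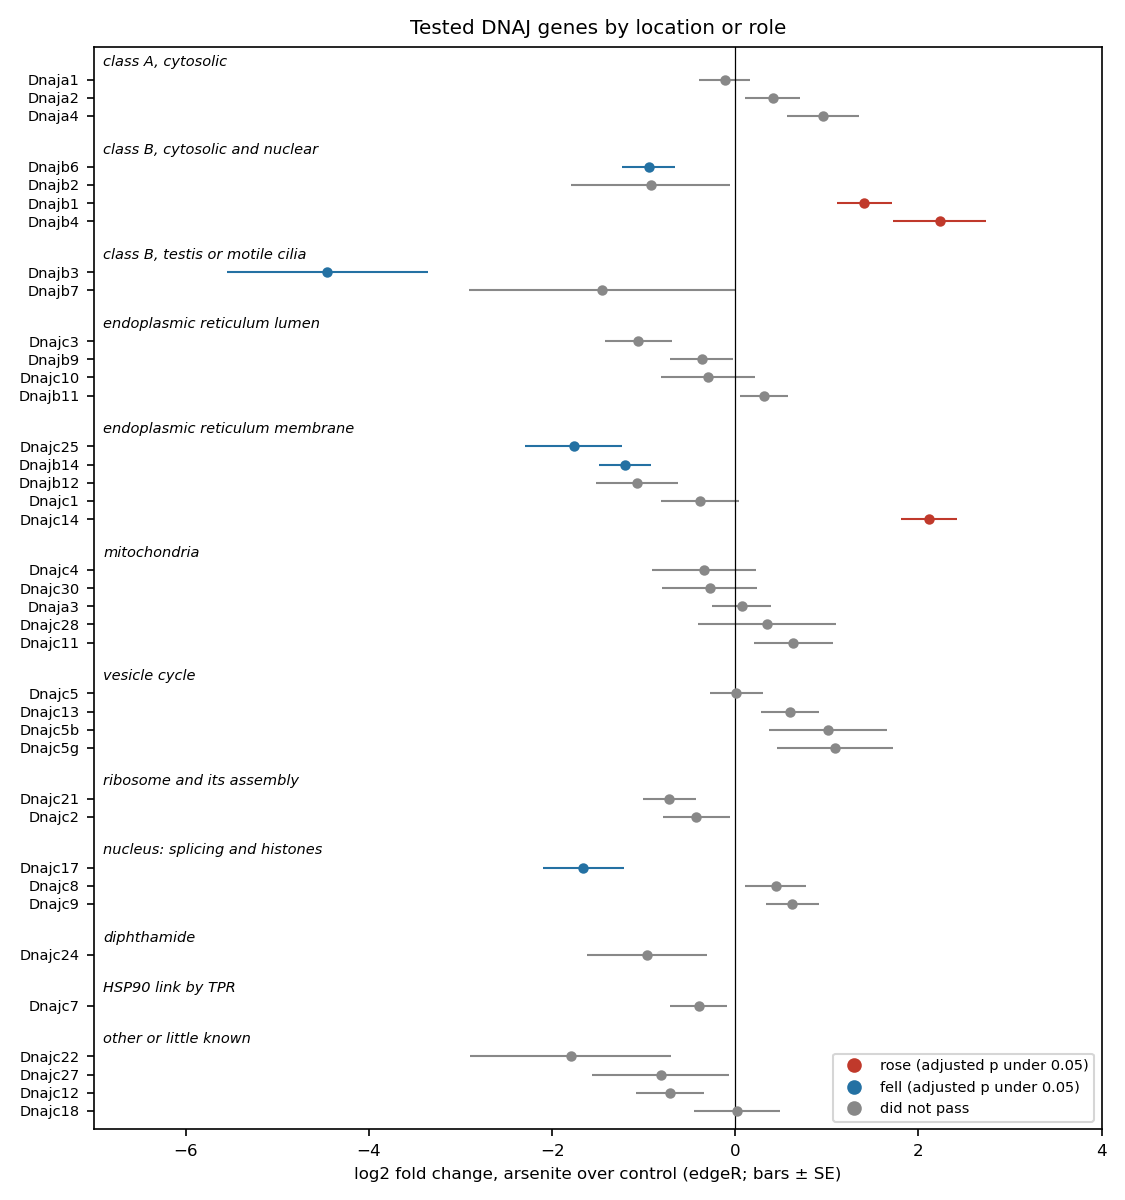
Log2 fold change of arsenite over control for the 38 tested DNAJ genes, grouped by location or role, with bars of ± 1 SE from edgeR and colour marking the call. The 3 rises lie between 1.41 and 2.23, and the 5 falls between −4.45 and −0.95.

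The summed level of the family differed less between groups than within them. It was 5424 ± 566 CPM in controls and 5216 ± 395 CPM with arsenite (n = 3, SD), with overlapping groups. Dnajb9 alone supplied 29.6 ± 8.61% of it in controls and 24.3 ± 3.28% with arsenite (n = 3, SD). Without Dnajb9 the sum was 3787 ± 78.9 CPM and 3946 ± 261 CPM (n = 3, SD), again overlapping.

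Levels between genes were compared per kilobase of exon, with the exons of all annotated transcripts of a gene merged. Such a length can exceed that of the transcripts present, so places between genes are rough. Dnaja1, with 8629 merged bases, had 534 CPM in controls, and Dnaja2, with 2975, had 530 CPM. In controls Dnajb9 led at 642 ± 244 CPM per kb, followed by Dnaja2 at 178 ± 48.8 and Dnajb6 at 111 ± 12.9 CPM per kb (n = 3, SD). Next came Dnajc21 at 79.1 ± 17.6, Dnajc8 at 65.5 ± 22.5 and Dnaja1 at 61.85 ± 12.8 CPM per kb (n = 3, SD), whose spreads overlapped. With arsenite Dnajb9 and Dnaja2 kept places 1 and 2, at 498 ± 89.4 and 237 ± 23.4 CPM per kb (n = 3, SD). Dnajb1 stood at place 10 of 42 in controls and place 4 with arsenite. Dnajb4 stood at place 17 and then 7, and Dnajc14 at place 25 and then 11. Dnajc17 stood at place 7 and then 16, and Dnajb14 at place 16 and then 24. The lowest places in controls belonged to Dnajb5, Dnajc6, Dnajc16 and Dnajb13, the 4 genes that did not pass the filter, each at a group mean of 1.97 CPM or less.

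**Figure D2:**
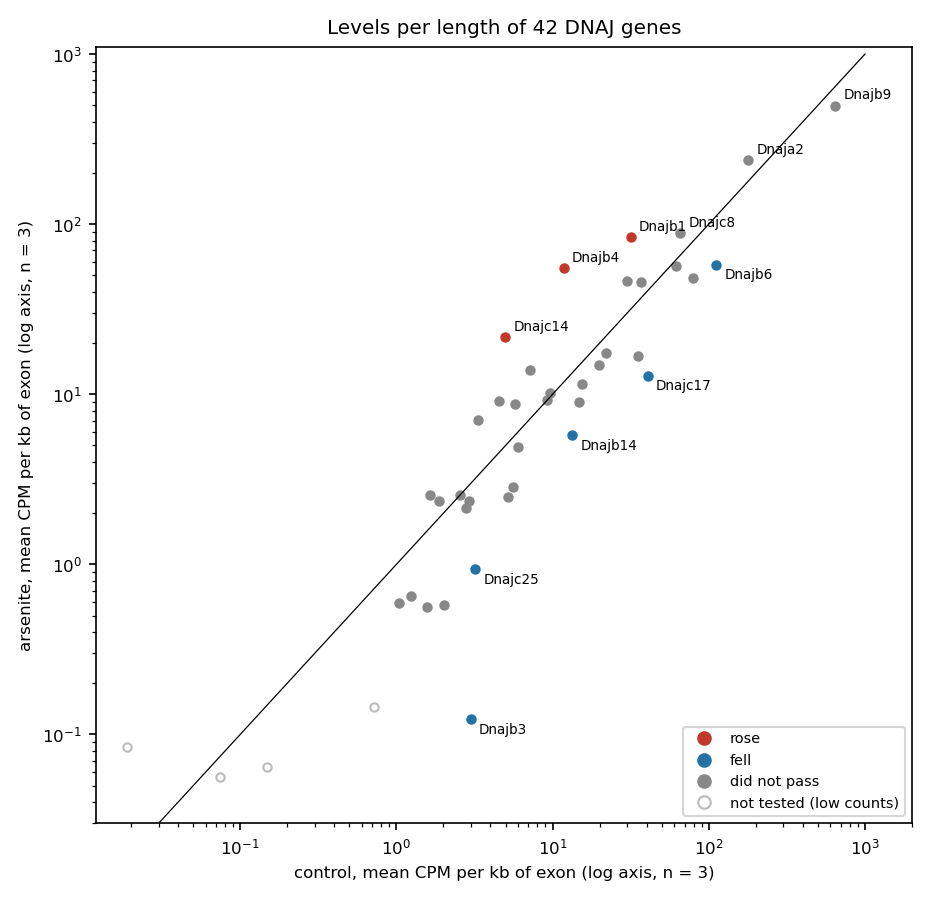
Mean level in CPM per kilobase of exon in the 3 control libraries (x axis, log scale) and the 3 arsenite libraries (y axis, log scale) for the 42 DNAJ genes, with a line of equal levels. Dnajb4, Dnajb1 and Dnajc14 lie above the line and the 5 genes that fell lie below it, while Dnajb9 is highest in both groups.

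Promoters were read for matches to heat shock elements, the sites of HSF1, and to the endoplasmic reticulum stress element, the site of unfolded protein response factors. RefSeq promoter windows of 250 bases before to 50 after the start site (GRCm38.p6, the assembly of mm10) were at hand for 34 of the 42 genes, 11 of them with more than 1 window. A heat shock core of 2 facing units, GAANNTTC, occurred for 5 of the 34 genes (14.7%) and for 9.04% of all 27025 genes with a window. The 5 were Dnaja1, Dnaja4, Dnajb6, Dnajc5g and Dnajc27. A gene counted if any of its windows matched, so the shares per gene are not matched for the number of windows searched. Of all 32851 windows 7.86% held this core. The other order of 2 units, TTCNNGAA, added after the first search, occurred for Dnajb4, Dnajb6 and Dnajc10 (8.82% against 9.60%). The element of 3 units, read as GAA, any 2 bases, TTC, any 2 bases and GAA, contains both cores and occurred for Dnajb6 alone (2.94% against 0.662%). The stress element, read as CCAAT, any 9 bases and CCACG, occurred for Dnajc3 alone (2.94% against 0.137%). Both strands were searched. Such matches are descriptions of letters, not of binding, and a window without a match says nothing of sites outside it.

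Shown here, 5′ to 3′ in the direction of transcription, is 1 window for each of the 3 genes that rose. The same is shown for Dnajb6, Dnaja4 and Dnajc3, which hold matches. Dnaja1, Dnajc5g, Dnajc10 and Dnajc27 also had matches, and their windows are not shown. Capitals mark matches, and windows without capitals hold none. The windows lie at chr10:128805304-128805603 (plus strand) for Dnajc14, chr8:83607925-83608224 (plus) for Dnajb1 and chr3:152193796-152194095 (minus) for Dnajb4. Those of Dnajb6, Dnaja4 and Dnajc3 lie at chr5:29735648-29735947, chr9:54699309-54699608 and chr14:118937682-118937981, all on the plus strand.
Dnajc14: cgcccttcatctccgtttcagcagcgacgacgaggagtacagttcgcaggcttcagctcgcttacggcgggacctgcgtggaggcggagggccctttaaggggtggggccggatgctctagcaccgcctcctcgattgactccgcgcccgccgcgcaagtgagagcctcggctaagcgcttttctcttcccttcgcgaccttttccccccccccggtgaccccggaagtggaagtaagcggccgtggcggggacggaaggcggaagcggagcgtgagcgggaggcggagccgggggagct
Dnajb1: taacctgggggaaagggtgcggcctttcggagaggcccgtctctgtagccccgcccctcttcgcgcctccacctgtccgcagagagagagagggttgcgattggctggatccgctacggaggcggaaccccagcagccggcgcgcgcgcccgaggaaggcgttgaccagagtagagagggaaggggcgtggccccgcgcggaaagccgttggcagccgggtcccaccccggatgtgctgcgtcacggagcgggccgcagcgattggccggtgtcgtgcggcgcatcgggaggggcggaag
Dnajb4: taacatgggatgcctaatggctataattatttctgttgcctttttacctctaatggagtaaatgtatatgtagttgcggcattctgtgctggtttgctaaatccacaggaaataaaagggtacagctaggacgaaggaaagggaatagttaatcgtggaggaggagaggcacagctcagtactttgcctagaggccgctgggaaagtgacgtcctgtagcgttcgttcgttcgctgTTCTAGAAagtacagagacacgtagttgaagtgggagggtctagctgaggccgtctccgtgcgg
Dnajb6: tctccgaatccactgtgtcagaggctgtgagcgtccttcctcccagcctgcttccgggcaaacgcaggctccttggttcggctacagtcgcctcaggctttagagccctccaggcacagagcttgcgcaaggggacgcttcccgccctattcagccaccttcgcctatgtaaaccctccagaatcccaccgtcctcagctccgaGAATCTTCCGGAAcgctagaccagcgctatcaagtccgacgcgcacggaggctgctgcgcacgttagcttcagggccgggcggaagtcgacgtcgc
Dnaja4: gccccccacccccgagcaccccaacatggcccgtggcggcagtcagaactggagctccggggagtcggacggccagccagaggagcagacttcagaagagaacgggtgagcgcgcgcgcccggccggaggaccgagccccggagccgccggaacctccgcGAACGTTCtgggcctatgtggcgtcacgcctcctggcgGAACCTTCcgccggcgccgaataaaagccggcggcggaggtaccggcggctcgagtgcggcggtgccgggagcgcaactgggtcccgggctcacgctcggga
Dnajc3: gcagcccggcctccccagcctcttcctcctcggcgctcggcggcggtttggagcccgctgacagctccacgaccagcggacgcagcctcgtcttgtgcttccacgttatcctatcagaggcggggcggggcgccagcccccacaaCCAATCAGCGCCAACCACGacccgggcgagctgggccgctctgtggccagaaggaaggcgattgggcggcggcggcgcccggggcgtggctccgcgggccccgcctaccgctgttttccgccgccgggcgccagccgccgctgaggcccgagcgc
In Dnajb6 the match of 3 units began 46 bases before the start site of this window. Dnaja4 held 2 cores, beginning 90 and 52 bases before the start, and Dnajc3 its stress element 105 bases before it. Dnajb4 had its match inside the printed window, beginning 14 bases before the start site, and no match in its other window. Of the 3 genes that rose, 0 held GAANNTTC and Dnajb4 held TTCNNGAA, while Dnajb6, which fell, held both. Whether matches go with rises was not tested.

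The clearest rise was that of Dnajc14, a membrane J protein of the endoplasmic reticulum known from human cells for its part in sending receptors to the surface. It stood at 34.8, 30.9 and 32.3 CPM in control replicates 1, 2 and 3 and at 151, 167 and 108 CPM in arsenite replicates 1, 2 and 3. The groups were far apart, and the controls lay close together. Its log2 fold change was 2.12 ± 0.31 (± SE, adjusted p by edgeR = 0.00463), from 32.7 ± 1.96 to 142 ± 30.9 CPM (n = 3, SD). It was the 1 member past the threshold in each of the 13 alternative fits, at log2 fold changes of 1.90 to 2.29 and a highest adjusted p = 0.0372. The gene (chromosome 10, 128804904 to 128819448, mm10) shares 17.0% of its exonic bases with Ormdl2 and 2.1% with Tmem198b, both on the opposite strand. It shares 0.8% with Sarnp on its own strand. Sarnp fell from 153 ± 17.0 to 74.7 ± 17.0 CPM (n = 3, SD, adjusted p by edgeR = 0.0375). The strand setting of the counting is not given in the sources used here, and Ormdl2 had 43.1 ± 12.8 CPM in controls and 62.9 ± 20.2 CPM with arsenite (n = 3, SD, adjusted p by edgeR = 0.317).

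Dnajb4, a cytosolic class B co-chaperone, stood at 186, 58.2 and 65.0 CPM in control replicates 1, 2 and 3 and at 688, 511 and 254 CPM in arsenite replicates 1, 2 and 3. Replicate 1 was the highest library of each group, and the lowest arsenite library exceeded the highest control. The log2 fold change was 2.23 ± 0.51 (± SE, adjusted p by edgeR = 0.0181), from 103 ± 71.9 to 485 ± 218 CPM (n = 3, SD). Within pairs of the same replicate number the log2 ratios were 1.88, 3.09 and 1.94. The call was lost without control replicate 2, control replicate 3 or arsenite replicate 1 (edgeR adjusted p = 0.0623, 0.0815 and 0.0759). Control replicate 1, the highest control, lowered the log2 fold change, which was 2.96 without it. The log2 fold change was 1.94 without control replicate 2 or 3 and 1.88 without arsenite replicate 1. Dnajb4 lies on chromosome 3 (152181580 to 152210432).

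Dnajb1, the main heat-inducible HSP40 of the mammalian cytosol (chromosome 8, 83608175 to 83612653), stood at 107, 123 and 74.5 CPM in control replicates 1, 2 and 3. It stood at 314, 262 and 233 CPM in arsenite replicates 1, 2 and 3. Each arsenite library was thus above each control. The log2 fold change was 1.41 ± 0.30 (± SE, adjusted p by edgeR = 0.0139), from 101 ± 24.7 to 269.5 ± 40.9 CPM (n = 3, SD). Without control replicate 1, control replicate 3 or arsenite replicate 1 the call was lost (edgeR adjusted p = 0.0515, 0.0832 and 0.0743). No transcript of another gene matched Dnajb1, Dnajb4 or Dnajc14 at 95% identity over 300 bases.

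Dnajb6 moved the other way within the same class. It stood at 697, 740.4 and 588 CPM in control replicates 1, 2 and 3 and at 324, 444 and 283 CPM in arsenite replicates 1, 2 and 3. Its log2 fold change was −0.95 ± 0.29 (± SE, adjusted p by edgeR = 0.0471), from 675 ± 78.2 to 350.5 ± 83.7 CPM (n = 3, SD). This was the called member closest to the threshold, and the groups did not overlap. Its call was kept without arsenite replicate 2 and lost without each of the other libraries (highest adjusted p = 0.153, without arsenite replicate 1). The gene (chromosome 5, 29735898 to 29786478) has 5 processed pseudogenes with 97.3% to 99.6% identity over about 700 bases, none of which has a row in the table, so where their reads were counted is uncertain. Among the other cytosolic class B genes, Dnajb2 had 5.27 ± 4.33 CPM in controls and 2.77 ± 0.671 CPM with arsenite (n = 3, SD, adjusted p by edgeR = 0.480). Dnajb5 had at most 7 counts in a library.

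**Figure D3:**
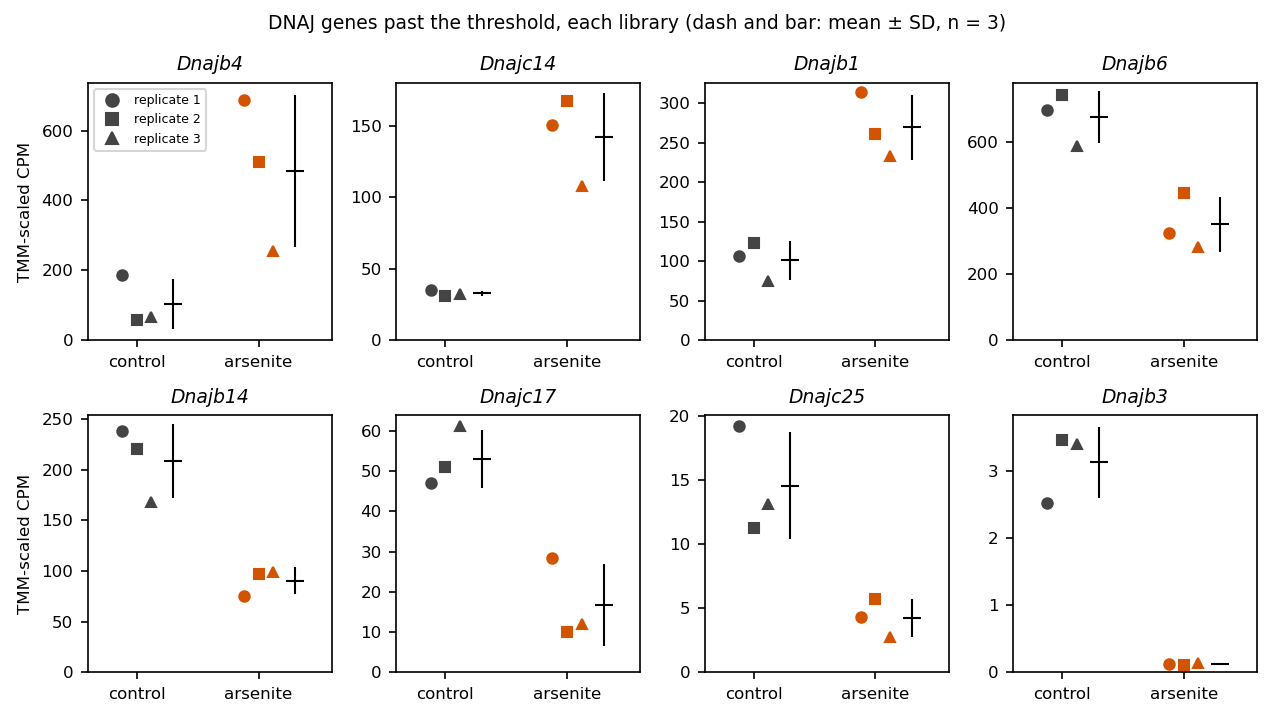
TMM-scaled CPM of the 8 DNAJ genes past the threshold in each library, with replicate number as marker shape and the mean ± SD (n = 3) beside the points; every y axis starts at 0 and has its own scale. For each of the 8 genes all arsenite points lie on one side of all control points.

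Of the cytosolic class A genes 0 of 3 were called, beside 16.7% of all genes tested. Groups of so few genes often hold 0 calls at that share. Dnaja1, a farnesylated partner of HSC70, stood at 464, 661 and 476 CPM in control replicates 1, 2 and 3 and at 503, 440.2 and 534 CPM in arsenite replicates 1, 2 and 3. The groups overlapped, with a log2 fold change of −0.12 ± 0.28 (± SE, adjusted p by edgeR = 0.800). It has 3 processed pseudogenes of 97.1% to 99.4% identity. Dnaja2 stood at 569, 369.6 and 652 CPM in controls and at 742, 625 and 748 CPM with arsenite, in the order of the replicate numbers. Its lowest library was control replicate 2, and its log2 fold change was 0.41 ± 0.30 (± SE, adjusted p by edgeR = 0.358). Dnaja4, which heat shock induces in mammalian cells, had 25.7 ± 3.85 CPM in controls and 49.97 ± 23.7 CPM with arsenite (n = 3, SD, adjusted p by edgeR = 0.116). Its groups did not overlap, and arsenite replicate 3 was highest at 76.4 CPM. Dnaja4 shares 44.1% of its exonic bases with Wdr61 on the opposite strand, which fell from 125 ± 23.6 to 50.8 ± 15.97 CPM (n = 3, SD, adjusted p by edgeR = 0.0265).

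In the endoplasmic reticulum membrane Dnajc14 rose while Dnajb14 and Dnajc25 fell. Dnajb14, which works with HSC70 in clearing misfolded membrane proteins, stood at 238, 221 and 168 CPM in control replicates 1, 2 and 3. It stood at 75.0, 97.2 and 99.4 CPM in arsenite replicates 1, 2 and 3. All arsenite libraries were below all controls, by a log2 fold change of −1.21 ± 0.29 (± SE, adjusted p by edgeR = 0.0204). The call was lost without control replicate 1 or arsenite replicate 1 (edgeR adjusted p = 0.0601 and 0.0888). Its close relative Dnajb12 also had arsenite libraries below the controls, at 17.6 ± 2.08 and 8.36 ± 2.14 CPM (n = 3, SD), but did not pass (edgeR adjusted p = 0.116). Dnajc25 stood at 19.3, 11.3 and 13.2 CPM in controls and at 4.32, 5.70 and 2.77 CPM with arsenite, in the order of the replicate numbers. Its log2 fold change was −1.76 ± 0.53 (± SE, adjusted p by edgeR = 0.0448). That call was kept without arsenite replicate 2, lost without each other library (highest adjusted p = 0.134, without control replicate 1) and lost with no count filter (adjusted p = 0.0527). Dnajc25 shares 7.7% of its exonic bases with Gm20503 on the same strand. Dnajc1 had a log2 fold change of −0.39 ± 0.43 (± SE, adjusted p by edgeR = 0.557), and Dnajc16 had at most 13 counts in a library.

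Of the 4 genes of the endoplasmic reticulum lumen 0 were called, beside 16.7% of all genes tested, a share at which 0 of so few is common. Dnajb9, which binds the HSP70 BiP and restrains the stress sensor IRE1, stood at 2214, 978 and 1719.8 CPM in control replicates 1, 2 and 3. It stood at 1449.6, 1013.5 and 1346 CPM in arsenite replicates 1, 2 and 3. Replicate 2 was the lowest library of each group and the groups overlapped (log2 fold change −0.37 ± 0.35 SE, adjusted p by edgeR = 0.487). Dnajc3, the kinase-inhibiting co-chaperone p58IPK, stood at 136, 273 and 131 CPM in controls and at 93.6, 104 and 61.8 CPM with arsenite, in the order of the replicate numbers. All arsenite libraries were below all controls, and of the genes that missed the threshold it was the nearest to it (log2 fold change −1.06 ± 0.37 SE, adjusted p by edgeR = 0.0685). With the replicate number as a block it passed (adjusted p = 0.0241), as it did by DESeq2 (adjusted p = 0.0301), and without control replicate 2 the adjusted p was 0.228. The block and DESeq2 called 12.6% and 12.5% of all genes lower, against 7.26% in the main fit. Dnajb11, which binds unfolded clients beside BiP, stood at 116, 111 and 129 CPM in controls and at 150.4, 151 and 142 CPM with arsenite, in the order of the replicate numbers. Its groups did not overlap, yet the log2 fold change of 0.32 ± 0.26 (SE) did not pass (edgeR adjusted p = 0.416). Dnajc10, a disulfide reductase, had 14.6 ± 7.07 and 11.8 ± 2.55 CPM (n = 3, SD, adjusted p by edgeR = 0.715).

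In the nucleus Dnajc17, whose product takes part in splicing, stood at 47.1, 50.9 and 61.1 CPM in control replicates 1, 2 and 3 and at 28.5, 9.92 and 11.97 CPM in arsenite replicates 1, 2 and 3. Arsenite replicate 1 lay nearest to the controls. The log2 fold change was −1.66 ± 0.44 (± SE, adjusted p by edgeR = 0.0299), and the call was kept without arsenite replicate 1 and lost without each other library (highest adjusted p = 0.0967, without control replicate 3). Without arsenite replicate 1 the log2 fold change was −2.32. A processed pseudogene, Gm6257, matches it at 97.0% identity, and 8.3% of its exonic bases are shared with Zfyve19 on the opposite strand. Dnajc8, also tied to splicing, stood at 119.9, 231 and 151 CPM in controls and at 167, 293 and 220.2 CPM with arsenite, in the order of the replicate numbers. Replicate 2 was highest in each group (edgeR adjusted p = 0.380). Dnajc9, a chaperone of histones H3 and H4, stood at 75.4, 76.5 and 63.2 CPM in controls and at 122, 88.0 and 121 CPM with arsenite. Its groups did not overlap, with a log2 fold change of 0.62 ± 0.29 (SE) that did not pass (edgeR adjusted p = 0.155).

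Both genes tied to the ribosome had negative fold changes and neither passed. Dnajc21, which helps the large subunit mature, stood at 339.5, 319.7 and 474 CPM in control replicates 1, 2 and 3 and at 231, 193 and 264 CPM in arsenite replicates 1, 2 and 3. The groups did not overlap (log2 fold change −0.72 ± 0.29 SE, adjusted p by edgeR = 0.105), and it passed when scaled by library size only (adjusted p = 0.0483) and by DESeq2 (adjusted p = 0.0493). Those fits called 8.5% and 12.5% of all genes lower, against 7.26% in the main fit. Dnajc2, which sits at the exit of the ribosome with an HSP70, stood at 52.9, 81.3 and 97.4 CPM in controls and at 80.2, 54.4 and 38.0 CPM with arsenite, with overlapping groups (edgeR adjusted p = 0.444). Dnajc24, needed for the diphthamide residue of elongation factor 2, had 7.63 ± 3.80 and 3.92 ± 1.63 CPM (n = 3, SD, adjusted p by edgeR = 0.326).

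For mitochondria 0 of 5 genes were called, with log2 fold changes from −0.34 for Dnajc4 to 0.63 for Dnajc11. Over all genes tested 16.7% were called, a share at which 0 of so few is common. Dnaja3, which serves the mitochondrial HSP70, had 37.8 ± 6.97 CPM in controls and 39.8 ± 4.60 CPM with arsenite (n = 3, SD). The other 4 were at group means of 6.67 to 27.4 CPM and overlapped between groups. Dnajc30 shares 26.2% of its exonic bases with Bud23 on the opposite strand.

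For the vesicle cycle 0 of 4 tested genes were called, beside 16.7% of all genes tested, a share at which 0 of so few is common. The log2 fold changes of the 4 ran from 0.01 to 1.09. Dnajc5, the cysteine string protein of secretory vesicles, stood at 78.0, 58.4 and 55.7 CPM in controls and at 66.3, 65.0 and 62.6 CPM with arsenite, in the order of the replicate numbers. Its means were 64.1 ± 12.2 and 64.6 ± 1.84 CPM (n = 3, SD). Dnajc13, of endosomal sorting, stood at 70.6, 51.8 and 84.6 CPM in controls and at 123, 78.4 and 111 CPM with arsenite (edgeR adjusted p = 0.210). The Dnajc5 relatives Dnajc5b and Dnajc5g were at 5.68 ± 2.45 and 5.41 ± 3.50 CPM in controls and at 11.5 ± 8.15 and 11.5 ± 1.58 CPM with arsenite (n = 3, SD), and only Dnajc5g of this pair had groups that did not overlap. The clathrin-uncoating gene Dnajc6 had at most 11 counts in a library.

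Dnajc7, whose TPR repeats bind HSP70 and HSP90, stood at 116, 84.6 and 86.5 CPM in controls and at 90.4, 71.3 and 55.8 CPM with arsenite, in the order of the replicate numbers. The groups overlapped (edgeR adjusted p = 0.385). Dnajc12, which assists aromatic amino acid hydroxylases, stood at 81.1, 81.97 and 36.2 CPM in controls and at 35.4, 48.1 and 37.96 CPM with arsenite. Control replicate 3 lay among the arsenite libraries (edgeR adjusted p = 0.201). Dnajc18, Dnajc22 and Dnajc27 had control means of 13.9, 3.72 and 5.31 CPM and arsenite means of 14.1, 1.07 and 3.00 CPM, all with overlapping groups. Over the 30 genes that did not pass, log2 fold changes ran from −1.80 for Dnajc22 to 1.09 for Dnajc5g.

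Some members known mainly from testis or motile cilia were detected at low levels. Dnajb3 had 21, 31 and 28 counts in control replicates 1, 2 and 3 and 1 count in each arsenite library. That is 3.14 ± 0.526 and 0.129 ± 0.0161 CPM (n = 3, SD), and the edgeR adjusted p was 0.0230. The gene could pass the count filter only through the controls, and its arsenite counts were under the floor of 3 counts. Summed over libraries the controls were 24.6-fold higher on the TMM scale, a fold whose size is uncertain at such counts. The exact binomial 95% interval was 8.12 to 122 and covers counting error only. PCR-amplified reads without molecular identifiers are not independent molecules. Dnajb3 kept its call in 0 of the 6 fits without a library (edgeR adjusted p = 0.0526 to 0.0949), and limma-voom gave an adjusted p = 0.0562. Dnajb13, of the ciliary axoneme, had 7 to 29 counts in controls and 2 to 4 with arsenite and was not tested. Dnajb7 ranged from 0 to 43 counts, with overlapping groups. The sperm markers Prm1, Prm2 and Tnp1 had a summed level of at most 1.46 CPM in a library.

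Partners of the DNAJ proteins were described with lists of 43 genes, all of them in the table. Of 41 tested 6 rose and 1 fell, or 17.1% called against 16.7% of all genes, with a median log2 fold change of 0.27. With the replicate block, under which 26.0% of all genes were called, 8 rose and 3 fell. Leaving out control replicate 1, 2 or 3 gave 2, 4 or 3 rises and 1, 1 or 0 falls. Leaving out arsenite replicate 1, 2 or 3 gave 2, 4 or 3 rises and 0, 3 or 2 falls. The shares of all genes called in these fits are those given with the DNAJ counts. Among HSP70 and HSP110 genes 4 of 14 rose and 0 fell by edgeR without the block, beside 9.43% and 7.26% of all genes tested. With the block Hspa4, an HSP110-type exchange factor, fell (adjusted p by edgeR = 0.0271, against 0.0616 without), from 142 ± 14.7 to 75.5 ± 21.3 CPM (n = 3, SD). The heat-inducible HSP70 gene Hspa1a stood at 3.73, 5.92 and 12.4 CPM in control replicates 1, 2 and 3 and at 26.3, 18.9 and 65.1 CPM in arsenite replicates 1, 2 and 3. Its near-identical copy Hspa1b stood at 0.843, 2.68 and 3.17 CPM and at 15.4, 8.67 and 32.1 CPM, so the split between the pair is uncertain. Both rose, with log2 fold changes of 2.32 ± 0.60 for Hspa1a and 3.06 ± 0.69 for Hspa1b (± SE, adjusted p by edgeR = 0.0270 and 0.0176). Hspa1a lost its call without control replicate 1 or 2 or arsenite replicate 1 or 3, and Hspa1b without control replicate 1 or 3 or arsenite replicate 1 or 3 (highest edgeR adjusted p = 0.0968 and 0.0609). Without arsenite replicate 3 their log2 fold changes were 1.62 and 2.42.

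Hspa2, an HSP70 abundant in male germ cells, rose from 5.54, 10.9 and 9.63 CPM in control replicates 1, 2 and 3 to 90.8, 35.4 and 215 CPM in arsenite replicates 1, 2 and 3 (adjusted p by edgeR = 0.00604). Its log2 fold change was 3.70, and 2.86 without arsenite replicate 3. In Hspa1a, Hspa1b and Hspa2 alike arsenite replicate 3 was highest and replicate 2 lowest of the treated libraries. That differs from Dnajb1 and Dnajb4, in which arsenite replicate 3 was the lowest. Hspa13, a microsomal member, rose by 1.87 ± 0.48 on the log2 scale (± SE, adjusted p by edgeR = 0.0270) and lost its call without each single library (highest adjusted p = 0.111, without control replicate 3). The constitutive Hspa8, at 544, 369 and 366 CPM in controls and 913, 809 and 688 CPM with arsenite, had groups that did not overlap and just missed the threshold (log2 fold change 0.91 ± 0.29 SE, adjusted p by edgeR = 0.0545). With the replicate block Hspa8 passed (adjusted p = 0.0228), as it did by DESeq2 (adjusted p = 0.022) and by limma-voom (adjusted p = 0.0334). Those fits called 13.4%, 13.6% and 10.1% of all genes higher, against 9.43% in the main fit. Hspa8 missed by edgeR under the other scalings and filters and without each single library (highest adjusted p = 0.2145, without control replicate 3). BiP, encoded by Hspa5, had 332 ± 31.9 and 435 ± 84.96 CPM (n = 3, SD, adjusted p by edgeR = 0.343). The mitochondrial Hspa9 had 217.5 ± 10.02 and 207 ± 13.2 CPM (n = 3, SD, adjusted p by edgeR = 0.875).

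Of 10 nucleotide exchange and release factors, which reset HSP70 after a DNAJ protein has acted, 0 rose and 0 fell by edgeR without the block. Over all genes tested 9.43% rose and 7.26% fell. The median log2 fold change of the 10 factors was −0.01. An unadjusted p by edgeR under 0.05 was found for 3 of the 10, beside 4269 of all 12582 genes tested. With the block Bag4 rose and Hspbp1 fell (adjusted p by edgeR = 0.0252 and 0.0224). Bag4 had 28.6 ± 6.65 and 61.1 ± 18.1 CPM, and Hspbp1 60.7 ± 24.9 and 28.2 ± 16.6 CPM (n = 3, SD). Of 10 genes of HSP90 and its links 1 rose, Ahsa1, an activator of HSP90, by 1.06 ± 0.32 on the log2 scale (± SE, adjusted p by edgeR = 0.0459). Ahsa1 lost its call with other scalings (adjusted p = 0.0929 by library size only, 0.0531 with RLE factors), with at least 10 counts in 3 libraries (adjusted p = 0.0606) and without control replicate 1 or 3 or arsenite replicate 1 or 2 (highest 0.199). Hsf1, the heat shock factor, had 48.6 ± 10.5 CPM in controls and 73.6 ± 15.1 CPM with arsenite, without overlap (n = 3, SD, adjusted p by edgeR = 0.212). Hsbp1, a small protein that binds HSF1, rose by 1.67 ± 0.29 on the log2 scale (± SE, adjusted p by edgeR = 0.00729). Of 4 J proteins under other names 1 fell, Gak, which uncoats clathrin vesicles as Dnajc6 does. Gak stood at 56.7, 53.4 and 74.9 CPM in controls and at 24.5, 22.7 and 19.1 CPM with arsenite, a log2 fold change of −1.48 ± 0.33 (± SE, adjusted p by edgeR = 0.0159). Without control replicate 3 or arsenite replicate 1 the adjusted p was 0.0710 and 0.0567.

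**Figure D4:**
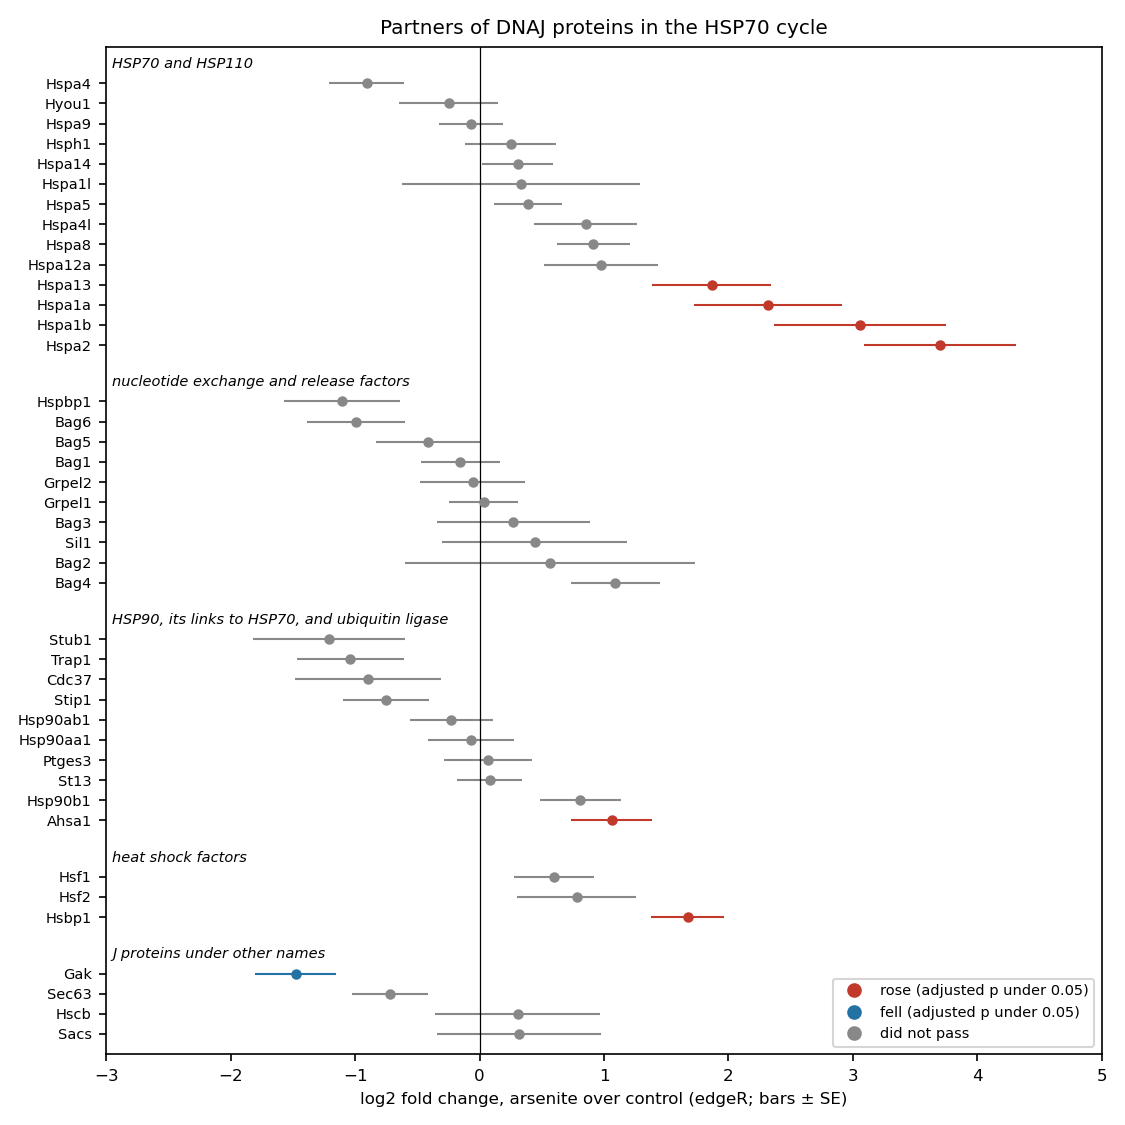
Log2 fold change of arsenite over control for the 41 tested partner genes of the DNAJ proteins, by list, with bars of ± 1 SE from edgeR and colour marking the call. Hspa2, Hspa1b, Hspa1a and Hspa13 lie farthest to the right, Gak is the 1 gene called lower, and the nucleotide exchange factors hold no call. Over all genes tested 16.7% were called.

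The 8 calls differed in how they depended on single libraries and on settings. Each kept its direction under each of the 13 alternatives. Dnajc14 passed in 13 of 13, Dnajb14 in 11, Dnajb1 and Dnajb4 in 10, Dnajb6 and Dnajc17 in 8, Dnajc25 in 7 and Dnajb3 in 6.

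**Figure D5:**
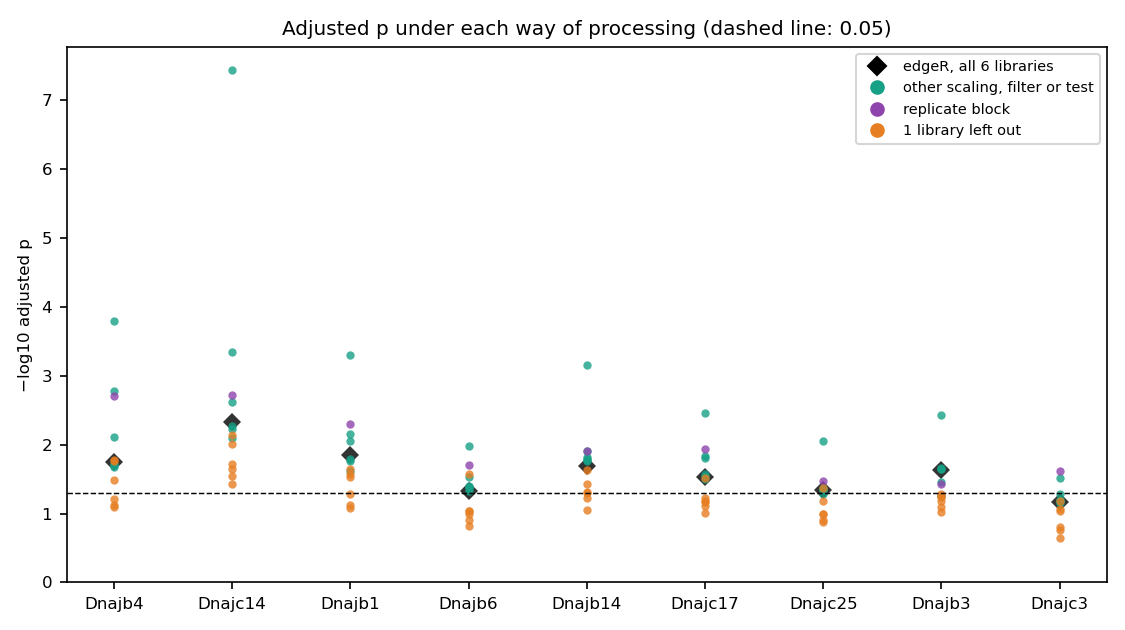
Adjusted p as −log10 (y axis) for the 8 called DNAJ genes and Dnajc3, with a diamond for the edgeR fit of all 6 libraries, and circles for other scalings, filters or tests, for the replicate block and for fits without 1 library. Circles of Dnajc14 all lie above the dashed line at 0.05, and most circles below the line in the other genes are fits without 1 library.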

How the data were processed

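The authors deposited unnormalized whole-number read counts, with a row per symbol and a column per library, and groups and replicate numbers came from the labels. The submitters' processing notes list the build mm10 and, with no roles, featureCounts 1.6.2, STAR, DESeq2 1.30.1 and StringTie 2.1.4. Which annotation and strand setting were used is not given in the sources used here. The labels' protocols describe 2 library kits and preamplified cDNA. Rows whose symbol had become a date (11) were left out.

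The test was the quasi-likelihood F-test of edgeR 4.0.16 (R 4.3.3), two-sided, after filterByExpr at its defaults and TMM scaling, arsenite against control with no covariate and Benjamini-Hochberg adjustment over 12582 genes. SE is the log2 fold change divided by the root of F. Under scaling by library size only, all genes had a median log2 fold change of −0.05 instead of 0.07, with 930 higher and 1070 lower calls instead of 1187 and 914, so directions are relative to the TMM scale.

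Alternatives were other scalings, count filters, DESeq2 1.42.0, limma-voom (limma 3.58.1), the replicate block and leaving out each library. Deviations from group means correlated across genes at 0.178 to 0.221 for same-numbered libraries and −0.164 to −0.0238 for others. Deviations sum to 0 within a group, so these ranges are not independent of each other. From these same counts, numbers were taken to pair libraries in the block fit and the ratios. The main fit does not use the pairing, and nothing in the labels says what same-numbered libraries share. Ratios within pairs used log2(CPM + 2). Each member was described, and by library if called, at 50 CPM or more in either group, or named in advance. Partner genes were named if called, or if Hspa8, Hspa1a, Hspa1b, Hspa5, Hspa9 or Hsf1. The members, lists and motifs were chosen with earlier results of these data known, so no set test was made. Exon lengths and shared exons came from GENCODE M21, gene positions and promoters from RefSeq on GRCm38.p6, and near copies from BLAST 2.17.0 at 95% identity over 300 bases.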

Additional observations from a re-analysis of the deposited data

How the results depend on the processing

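The 3 rises were called under each other scaling, count filter, test and the replicate block. Without a library, rises ranged from 1 to 3 and falls from 0 to 3, where 1.62% to 7.08% of all genes rose and 1.35% to 8.16% fell. Falls numbered 4 to 7 under the other settings, where 5.54% to 12.6% of all genes fell, and 6 with the replicate block (12.6%), where Dnajc3 was added. The median of the DNAJ genes tested in each fit stayed between −0.46 and −0.23. Partner rises ranged from 2 to 4 and falls from 0 to 3 without a library. Partner falls numbered 2 by library size only, RLE factors, at least 10 counts in 3 libraries or limma-voom, and 3 by DESeq2 or the replicate block, against 1. The replicate block changed no other DNAJ call.

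Signs turned for 6 uncalled genes, given as log2 fold changes. Dnajc5 had −0.098 by library size only, −0.019 with RLE factors and by DESeq2, −0.0025 with no filter, −0.052 with at least 10 counts, and −0.15 to 0.15 without single libraries. Dnajc18 had −0.11 by library size only, −0.0019 with RLE factors and by DESeq2, −0.041 with at least 10 counts, −0.070 by limma-voom, −0.075 with the replicate block and −0.49 to 0.21 without single libraries. Dnaja3 had −0.059 by library size only and −0.11 to 0.23 without single libraries. Dnajc28 had −0.055 with the block and −0.93 to 0.74 without single libraries. Without single libraries Dnaja1 ranged from −0.28 to 0.065 and Dnajb7 from −2.66 to 0.20. The cause was not tested. DESeq2 gave no adjusted p for Dnajb7.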
